A study of Mus musculus with 10 samples.

Results

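The genes described here are the mouse homologs of 8 human genes that carry Alzheimer's disease risk alleles and act in or beside the endocytic pathway: Bin1, Picalm, Sorl1, Rin3, Cd2ap, Fermt2, Clu and Abca7. They were chosen by name, as 8 of 20720 autosomal protein-coding genes. The first property read for each was H3K4me3, trimethylation of lysine 4 of histone H3, a mark of active promoters, in a peak within 1 kb of a transcription start site (TSS) in both replicates. The second was the set of PLAC-seq interactions of the 5 kb bin that holds the TSS. PLAC-seq combines proximity ligation with immunoprecipitation, here for H3K4me3, and so enriches DNA contacts of marked promoters.

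The cells were microglia, brain-resident macrophages, gated as CD45+ CD11b+ CX3CR1+ from C57/Bl6 mice that were wild type for an enhancer of Sall1. Of the 10 samples of the series, 2 libraries of H3K4me3 ChIP-seq, 2 of its input and 2 of PLAC-seq underlie the values below, and the Hi-C libraries of wild type and Sall1 Enhancer Knockout mice were not analysed here. Neither the age of the mice nor separate animals for the replicates are given in the labels, so spread between replicates may be technical. The ChIP libraries held 12.8 and 13.4 M tags, and the authors combined the PLAC-seq libraries into 1 list of 26689 interactions, which therefore have no replicate error. All 8 genes of the microglia marker list, Cx3cr1, P2ry12 and Tmem119 among them, were marked in both replicates. In the lists of other cells, 5 of 8 astrocyte, 3 of 8 neuron, 2 of 7 oligodendrocyte, 3 of 8 endothelial and mural and 1 of 8 monocyte and neutrophil genes were marked. The share over all autosomal protein-coding genes was 59.4%, and that of the astrocyte list was 62.5%. Gfap, Aqp4, Gad1, Mog and Ccr2 had no peak in either replicate. The tallest value in those lists was that of Slc1a3, with a mean of 208.8 tags per 10 M mapped. Next came the oligodendrocyte gene Mbp with 187, and Kdr and Flt1 of the endothelial and mural list with 135 and 57.7.

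In clathrin-mediated endocytosis, adaptors collect cargo at the plasma membrane, clathrin and its assembly proteins bend the membrane into a coated pit, and the pinched-off vesicle delivers its load to an early endosome under control of the GTPase Rab5. Cargo is then returned to the surface, passed to the Golgi by retromer and sorting receptors, or degraded in lysosomes. PICALM assembles clathrin, BIN1 binds and shapes curved membrane, CD2AP links receptors to actin, RIN3 activates Rab5, and SORL1 is a sorting receptor that binds the amyloid precursor protein. FERMT2 (kindlin-2) is an adaptor of integrins, clusterin, the product of Clu, is a secreted chaperone that is abundant in astrocytes, and ABCA7 is a lipid transporter.

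H3K4me3 marked 7 of the 8 promoters in both replicates, beside 59.4% of all autosomal protein-coding genes. The 7 values spanned from 10.6 tags per 10 M at Fermt2 to 363 at Bin1, and Clu had no peak within 1 kb of its TSS in either replicate. All peaks but 1 of the series had a fixed width, 184 bp in replicate 1 and 188 bp in replicate 2, so values compare genes over the same length. The value of a gene is that of its tallest such peak, and sums over all such peaks gave another order at the top.

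Bin1 stood at 357.6 tags per 10 M in replicate 1 and 368.5 in replicate 2 (mean 363 ± 7.71, SD, n = 2), above 95.1% of the 12304 marked genes. Cd2ap followed with 339.7 and 298.4 (319 ± 29.2), above 86.1% of them. Picalm had 312.4 and 296.1 (304 ± 11.5), above 81.8%. The Cd2ap and Picalm replicates overlapped, so the order of this pair is not set by these data, and the counting intervals of Bin1 and Cd2ap overlapped in replicate 1 (325.6 to 391.8 and 308.5 to 373.1) but not in replicate 2 (336.7 to 402.4 and 269.8 to 329.1). Sorl1 had 237.6 and 279.7 (259 ± 29.8), above 65.7% of marked genes and below both Picalm replicates. Rin3 had 151.9 and 162.6 (157 ± 7.57) and lay above 31.0%. Abca7 had 121.5 and 93.2 (107 ± 20.01), above 22.02%. From Picalm down, the replicate values of neighbours in this order did not overlap. Their counting intervals did for Picalm and Sorl1 in replicate 2 (267.7 to 326.7 and 252.1 to 309.5) and for Rin3 and Abca7 in replicate 1 (131.3 to 174.8 and 103.2 to 142.2). The step from Sorl1 to Rin3 was 1.64-fold and that from Rin3 to Abca7 1.46-fold.

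Fermt2 was weakly marked. Its peak held 10 tags in replicate 1 and 18 in replicate 2, which gave 7.79 (95% counting interval 3.74 to 14.3) and 13.4 (7.96 to 21.2) tags per 10 M, above 1.81% of marked genes and 10.1-fold below Abca7. The scaled input held 0.3 and 0.7 tags there, and the fold over input was 32.7 and 25.7. Between replicates the Fermt2 value moved by 0.78 on the log2 scale, with a counting error of 0.57, whereas the other 6 genes moved by at most 0.38 in either direction, beside an SD of 0.31 over all marked genes. Low marks also occurred at markers of other cells. The marked genes of the neuron list were Snap25 with 10.1 and 8.21, Map2 with 8.57 and 12.7 and Slc17a7 with 8.57 and 14.9. In the astrocyte list, Slc1a2 had 7.01 and 9.7, Gja1 17.9 and 16.4 and Aldh1l1 17.1 and 23.9. The astrocyte genes Slc4a4 and Slc1a3 were higher, with means of 41.5 and 209, and Gfap, Aqp4 and Aldoc had no peak. Whether such cells contributed tags at Fermt2 was not tested.

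**Figure D1:**
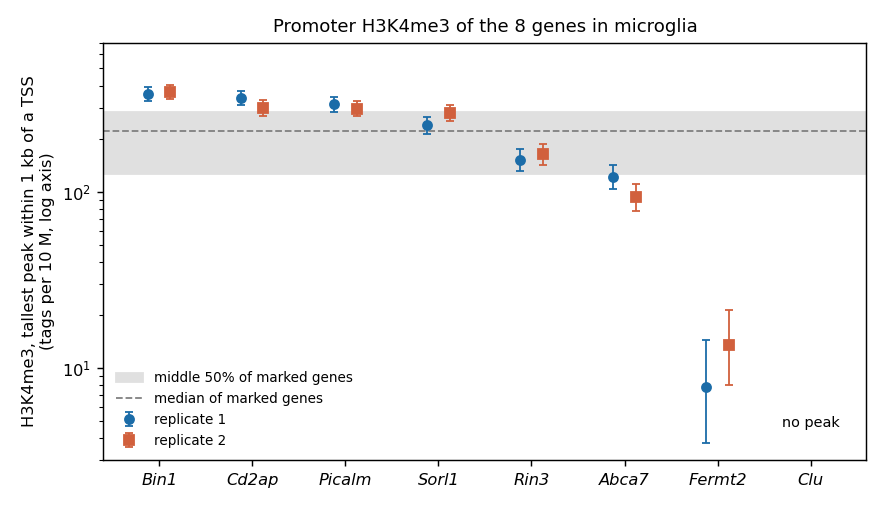
H3K4me3 of the 8 genes as the value of the tallest peak within 1 kb of a TSS, in tags per 10 M on a log axis, for replicate 1 (circles) and replicate 2 (squares), with exact 95% Poisson intervals of the tag count. The dashed line is the median of the 12304 marked genes at 220.4 and the grey band their middle 50% from 126.5 to 282.4: Bin1, Cd2ap and Picalm lie above the band in both replicates, Abca7 and Fermt2 below it, and Clu has no peak.

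Interactions were called at 4 of the 7 marked genes, beside 37.8% of all marked genes. Bin1 had 13, Picalm 11, Rin3 7 and Sorl1 3, and Cd2ap, Abca7 and Fermt2 had none, nor did the unmarked Clu. Of all marked genes 1.16% had 13 or more interactions, 1.85% had at least 11, 5.08% at least 7 and 18.1% at least 3. Among marked genes within 10% of the same H3K4me3 level, 1.95% of 1229 had as many as Bin1, 2.15% of 2237 as many as Picalm and 5.56% of 845 as many as Rin3. Of the 34 interactions, 23 ran upstream of the gene (67.6%, beside 49.6% of the 16659 over all marked genes) and 11 ended in the body of the same gene (32.4%, beside 14.5%). Their median distance was 70 kb, beside 125 kb. None of the 34 partner bins held a TSS of a protein-coding gene, which 16.2% of partner bins over all marked genes did. A TSS of another gene type lay in 3 of them (Gm22325, Gm44861 and 4930546K05Rik). H3K4me3 peaks in both replicates lay in 5 of the 34 partner bins (14.7%, exact binomial 95% interval 4.95% to 31.1%), beside 21.5%. Neighboring bins fall into the same cluster of interactions, 7 clusters in all: 3 at Rin3, 2 at Bin1 and 1 each at Picalm and Sorl1. The counts and shares above therefore do not rest on 34 independent contacts. By clusters the order of the genes was not that by interactions.

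**Figure D2:**
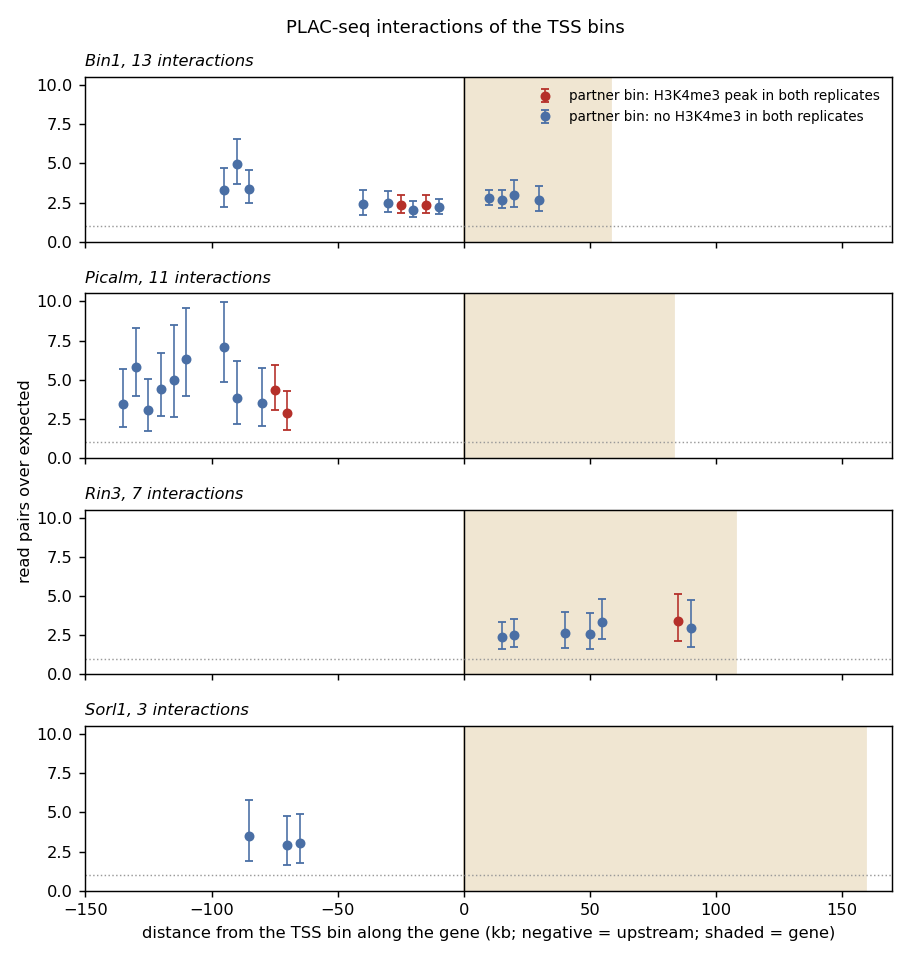
PLAC-seq interactions of the TSS bins of Bin1, Picalm, Rin3 and Sorl1, plotted by signed distance of the partner bin along the gene in kb (negative is upstream, the shaded span is the gene) and by read pairs over expected, with exact 95% Poisson intervals of the read pair count and a dotted line at 1. Picalm and Sorl1 contact upstream bins only, Rin3 bins inside its own gene only, and Bin1 both sides; red points are the 5 partner bins with an H3K4me3 peak in both replicates.

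Picalm (chr7:90130213-90213465, mm10) contacted a stretch of chromosome 7 between 70 and 135 kb upstream of its promoter, in 11 bins that began at positions 89995001 to 90060001. The strongest was the bin 95 kb upstream (chr7:90035001-90040000) at 33 read pairs against 4.67 expected, a ratio of 7.07 (95% counting interval 4.87 to 9.93; the authors' false discovery rate, FDR, 1.27e-14). The bin at 110 kb had 22 against 3.49 (6.30, FDR 7.07e-09) and the bin at 130 kb had 31 against 5.32 (5.83, FDR 1.2e-11). The other 8 had ratios from 2.87 to 4.97 with 13 to 37 read pairs. The bins from 90 to 135 kb upstream overlapped E230029C05Rik, annotated as a processed transcript, and those nearer to Picalm were intergenic. Summed over the 11 called bins, without the uncalled bins between them, there were 243 read pairs against 55.6 expected (4.37, 3.84 to 4.95).

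H3K4me3 in both replicates was found in 2 of these 11 bins. In the bin 70 kb upstream the tallest peak had 45.2 and 41.0 tags per 10 M, or 58 and 55 tags. In the bin at 75 kb it had 14.0 and 22.4. The remaining 9 partner bins, the strongest one included, held no peak in either replicate.

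The sequence of the peak 70 kb upstream is shown beside the Picalm promoter, since both ends of this contact are marked, although its ratio of 2.87 (FDR 0.000634) was the lowest of the 11. The promoter is the part of the RefSeq window (GRCm38.p6, plus strand) upstream of the TSS, chr7:90129963-90130212, and the partner region is a 300 bp window on the plus strand around the overlapping peaks of both replicates, chr7:90060482-90060781, intergenic and 17.9 kb from the nearest annotated TSS. Capitals mark matches to any of 7 motifs that were searched on both strands. The PU.1 motif was GAGGAAGT, the AP-1 motif TGANTCA, the RUNX motif TGTGGTT, the SMAD motif CAGACA, the motif of SP and KLF factors GGGCGG, the TATA box TATAAA and the NRF1 motif GCGCATGC.
Picalm promoter: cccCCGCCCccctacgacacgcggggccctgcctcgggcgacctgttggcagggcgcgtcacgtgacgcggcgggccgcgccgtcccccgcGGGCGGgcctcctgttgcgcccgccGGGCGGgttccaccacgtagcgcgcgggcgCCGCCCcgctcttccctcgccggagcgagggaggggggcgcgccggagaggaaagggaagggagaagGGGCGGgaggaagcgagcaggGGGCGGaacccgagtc
Picalm partner region: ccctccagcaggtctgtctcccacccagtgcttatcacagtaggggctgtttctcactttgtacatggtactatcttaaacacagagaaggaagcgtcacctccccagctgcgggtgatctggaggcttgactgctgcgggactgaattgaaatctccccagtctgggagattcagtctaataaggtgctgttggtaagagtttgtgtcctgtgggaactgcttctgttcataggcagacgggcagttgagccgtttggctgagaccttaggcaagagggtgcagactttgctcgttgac

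The promoter stretch was 79.2% G and C, with 39 CpG dinucleotides in 250 bases and an observed over expected CpG ratio of 1.00. It held 6 matches to GGGCGG, present in 35.7% of the 32851 promoter windows of the table, and none to the other motifs. The partner region was 52.3% G and C with a CpG ratio of 0.29, beside medians of 52.7% and 0.46 over 5521 marked regions of the same length away from any TSS. None of the 7 motifs occurred in it. The shares of distal marked regions with each motif ran from 1.79% for GCGCATGC to 25.5% for GGGCGG.

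The bins on either side of the Picalm TSS bin contacted the same upstream stretch. Of the 11 partner bins, 7 were also partners of the next bin downstream, which lies in the first part of the gene and held peaks of 17.9 and 12.7 tags per 10 M. A set of 4 were partners of the next bin upstream, which holds the TSS of the noncoding 2310010J17Rik, 736 bp from that of Picalm on the opposite strand, and a peak of 63.9 and 107.4. Tags and read pairs in these bins cannot be assigned to 1 of the 2 genes. Counted with the TSS bin or a bin next to it, Picalm had 29 interactions. Of its 11, 5 were left with an FDR of at most 0.0001 and 6 with at least 20 read pairs.

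Cd2ap (chr17:42792951-42876424), whose H3K4me3 replicates overlapped those of Picalm, had no interaction, and none was called in any of the 17 other bins of its gene. The nearest bin in any interaction lay 140 kb away and held the TSS of Tnfrsf21, and no interaction spanned the Cd2ap promoter. Of the 2066 marked genes within 10% of the Cd2ap level, 57.3% also had no interaction. A second peak, centered 392 bp upstream of the TSS, had 182.3 tags per 10 M in replicate 1, and replicate 2 had no peak at that place. A pair of bins that is not in the list is not shown to lack contact. The promoter upstream of the TSS, chr17:42876425-42876674 on the minus strand, is shown to set a tall mark without called contacts beside that of Picalm.
Cd2ap promoter: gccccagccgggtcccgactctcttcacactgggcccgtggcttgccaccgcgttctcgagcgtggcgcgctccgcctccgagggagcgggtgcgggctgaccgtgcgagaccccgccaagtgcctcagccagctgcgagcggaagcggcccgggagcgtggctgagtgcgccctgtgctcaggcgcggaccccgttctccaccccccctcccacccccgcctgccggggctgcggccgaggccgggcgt

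This stretch of Cd2ap was 76.4% G and C with a CpG ratio of 0.86, close in composition to the Picalm promoter, and had no match to any of the 7 motifs. The whole window of the table, which runs 50 bases past the TSS, held 1 match to GGGCGG.

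Rin3 (chr12:102283048-102390855) contacted its own gene. All 7 interactions of its TSS bin ran downstream, to bins 15 to 90 kb away inside the 108 kb gene. The highest ratio was at 85 kb (chr12:102365001-102370000), with 22 read pairs against 6.46 expected, a ratio of 3.41 (2.14 to 5.16; FDR 9.51e-05). The bin at 55 kb had 29 against 8.65 (3.35, FDR 7.53e-06) and the bin at 90 kb had 17 against 5.71 (2.98, FDR 0.00403). The other 4 had ratios of 2.38 to 2.64. The 5 bins nearest to the promoter were intronic, and the 2 farthest held coding exons.

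The bin at 85 kb carried H3K4me3 inside the gene, with 21.8 tags per 10 M in replicate 1 (28 tags) and 19.4 in replicate 2 (26 tags). The overlapping peaks lay in coding exon 6 of the transcripts Rin3-201 and Rin3-204 (chr12:102368364-102369848), 54.2 kb from the nearest annotated TSS. The next bin had a peak of 11.7 in replicate 1 only. The 300 bp window around the peaks, chr12:102369462-102369761 on the plus strand, is printed because this mark sits in protein-coding sequence.
Rin3 partner region: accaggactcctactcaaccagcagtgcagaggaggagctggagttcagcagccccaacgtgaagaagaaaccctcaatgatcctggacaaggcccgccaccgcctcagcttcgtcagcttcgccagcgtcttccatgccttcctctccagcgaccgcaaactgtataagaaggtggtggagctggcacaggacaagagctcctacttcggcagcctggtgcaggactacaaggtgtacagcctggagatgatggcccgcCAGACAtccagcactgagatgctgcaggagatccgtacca

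It was 58.0% G and C with a CpG ratio of 0.44, and held 1 match to CAGACA, a motif found in 22.7% of distal marked regions. At the promoter, replicate 1 had peaks of 128.5 and 151.9 tags per 10 M and replicate 2 had 1 peak of 162.6. With an FDR of at most 0.0001, 2 of the 7 interactions were left, those at 55 and 85 kb.

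Sorl1 (chr9:41964720-42124297, minus strand) had 3 interactions. Its TSS bin contacted bins 65, 70 and 85 kb upstream, over the lincRNA 4930546K05Rik, whose TSS lies in the bin at 85 kb. These contacts had 17, 15 and 14 read pairs against 5.57, 5.15 and 4.04 expected. The ratios were 3.05 (1.78 to 4.88; FDR 0.00332), 2.91 (1.63 to 4.80; FDR 0.00996) and 3.47 (1.90 to 5.82; FDR 0.00333). None of the 3 partner bins held H3K4me3 in either replicate, none took part in another interaction, and none was left with an FDR of at most 0.0001 or with at least 20 read pairs. Of the 2550 marked genes within 10% of the Sorl1 level, 41.6% had at least 1 interaction and 20.1% had at least 3.

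Bin1 (chr18:32377230-32435737) contacted both flanks. Its 13 interactions fell into a far upstream stretch of 3 bins at 85 to 95 kb, a near upstream stretch of 6 bins at 10 to 40 kb, and 4 bins inside the gene at 10 to 30 kb. The far stretch had the highest ratios: 51 read pairs against 10.3 expected at 90 kb, a ratio of 4.96 (3.70 to 6.53; FDR 3.23e-16), 42 against 12.4 at 85 kb (3.38, FDR 1.37e-08) and 31 against 9.38 at 95 kb (3.31, FDR 3.23e-06). Summed over its 3 bins the ratio was 3.87 (3.22 to 4.61), against 2.28 (2.06 to 2.53) in the near stretch and 2.76 (2.46 to 3.08) inside the gene. The distances of the stretches differ, so these sums are given side by side only. The deepest single pair was the intronic bin at 10 kb, with 132 read pairs against 47.4 (2.79).

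No partner bin of the far stretch held H3K4me3. In the near stretch the bin at 25 kb had a peak of 10.1 and 11.2 tags per 10 M and the bin at 15 kb a peak of 22.6 and 12.7, in replicates 1 and 2. Those 2 marked bins, chosen after their values were seen, also contacted bins inside Bin1: the bin at 15 kb upstream paired with the bin that holds coding exons 30 kb into the gene, with 15 read pairs against 3.72 expected (4.03, FDR 0.000428). The lincRNA A830052D11Rik starts 566 bp from the nearest Bin1 TSS on the opposite strand and runs over the 3 partner bins from 10 to 20 kb upstream. The tallest peak lay between the start sites of both genes in each replicate, so neither the mark nor the contacts of this bin can be assigned to 1 of them. The authors' annotation names the bin for A830052D11Rik, and by it Bin1 had 0 interactions.

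Fermt2, Clu and Abca7 had no interaction of their TSS bins. For Fermt2 (chr14:45458795-45530118) and Clu (chr14:65968483-65981547) the nearest bin in any interaction lay 385 and 190 kb away and no interaction spanned either promoter, so the loci were empty in the list. As interactions were called from H3K4me3 peaks, an unmarked promoter such as that of Clu could enter only as the partner of another bin. Of the 160 marked genes within 10% of the Fermt2 level, 81.9% had no interaction, and of the 364 near the Abca7 level 64.6% had none. The Fermt2 promoter is shown because its base composition stands beside a weak mark. The stretch chr14:45530119-45530315 on the minus strand lies upstream of both the RefSeq and the GENCODE start.
Fermt2 promoter: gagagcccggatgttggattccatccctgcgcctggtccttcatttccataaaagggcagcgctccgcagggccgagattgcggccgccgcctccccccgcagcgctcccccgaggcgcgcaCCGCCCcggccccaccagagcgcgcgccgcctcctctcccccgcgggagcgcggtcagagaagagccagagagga

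The stretch held 1 match to GGGCGG and the whole RefSeq window 6, as many as the Picalm window. The stretch was 72.1% G and C with a CpG ratio of 0.92. The whole window had more G and C (76.7%) than 97.3% of promoter windows in the table. The whole windows of Picalm (78.0%) and Cd2ap (77.0%) had nearly the same share, with mean H3K4me3 values 28.7 and 30.1 times that of Fermt2. Over the 8 windows of the 6 genes matched in the table, GGGCGG occurred in 7, in windows of all 6 genes, and CAGACA in 1. The other 5 motifs did not occur, where 2.71% to 13.6% of all windows hold them. The Abca7 window had 60.7% G and C and the lowest GC among the windows at a GENCODE start.

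Abca7 (chr10:79996494-80015572) sits in a dense stretch of marked genes, with the TSS of Cnn2, an actin-binding protein gene, 7.87 kb away. Its own bin had no interaction, and 21 interactions spanned it. The next bin, in the body of Abca7, contacted the bin of the Cnn2 promoter with 47 read pairs against 23.1 (2.04, FDR 0.00072) and that of the Arhgap45 promoter, also 15 kb away, with 66 against 27.4 (2.41, FDR 1.15e-07). Counting the bins next to the TSS bin gave Abca7 8 interactions.

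Bins inside the bodies of Picalm and Rin3 contacted promoters of other genes, a pattern examined after the values were seen. In Picalm, 11 of the 16 bins without its TSS contacted the bin of the promoter of Eed, a Polycomb gene whose TSS lies 149 kb upstream, over 165 to 225 kb. They summed to 179 read pairs against 34.6 expected (5.17, 4.44 to 5.98), and the highest ratio was 7.20 with 25 against 3.47 (FDR 2.82e-11). Eed had H3K4me3 of 311.6 and 324.5 tags per 10 M, in the range of Picalm itself, and the contacts of this bin passed over the Picalm promoter, whose own bin was not among them. The bin also holds a TSS of the noncoding E230029C05Rik, so its contacts cannot be assigned to Eed alone. In Rin3, 10 of 22 bins contacted the bin of the Cpsf2 promoter over 355 to 410 kb, with 123 read pairs against 18.8 (6.55, 5.44 to 7.82). The highest ratio was 10.3, with 20 against 1.94 (FDR 2.57e-11), in a bin with a coding exon. Cpsf2, an mRNA cleavage factor gene, had 278.9 and 311.0 tags per 10 M against 151.9 and 162.6 at Rin3, and shared its bin with a TSS of Ndufb1-ps.

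Of the 7 partner bins of the Rin3 promoter, 4 also contacted the Cpsf2 bin, the marked bin in exon 6 among them with 10 read pairs against 2.09 (4.79, FDR 0.00126). Of the 10 bins that contacted the Cpsf2 bin, 2 also contacted the bin of the Atxn3 promoter, 2 that of Trip11 and 1 that of Golga5. The summed ratio of the Rin3 promoter over its 7 bins was 2.76 (2.37 to 3.19). The distances of the Cpsf2 and Rin3 promoter contacts differ, and expected counts fall with distance. All listed interactions had at least 7 read pairs, so pairs with small expected counts could enter only at high ratios. The ratios are therefore given side by side only. In Sorl1, 2 of 32 bins contacted the bin of Sc5d, a gene of cholesterol synthesis, with 8 and 9 read pairs. None of the bins of Cd2ap, Fermt2 or Clu was in an interaction.

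**Figure D3:**
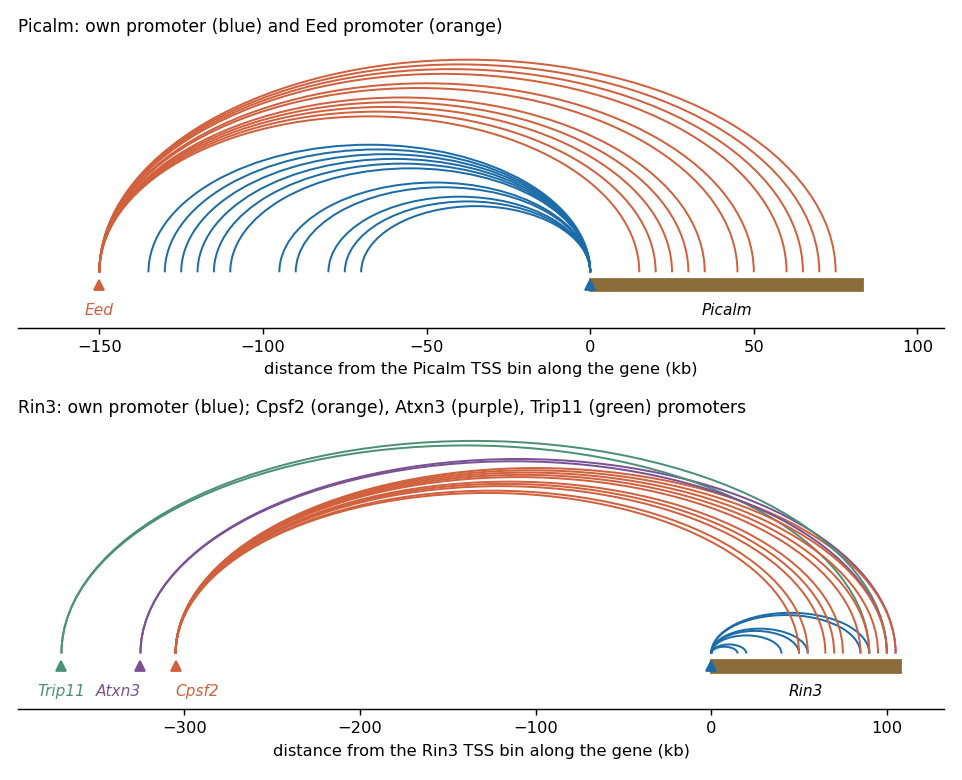
Arcs join interacting bins by distance in kb from the TSS bin of Picalm (top) and Rin3 (bottom) along each gene; blue arcs start at the gene's own promoter, other colors at promoters of neighboring genes, and the brown bar is the gene. The 11 blue Picalm arcs end upstream and the 11 orange arcs from the Eed bin end inside Picalm, whereas the 7 blue arcs of Rin3 and the 10 orange arcs from the Cpsf2 bin end inside Rin3; arc height follows distance only.

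Most other genes of the same machinery were marked. In the list of clathrin endocytosis, 26 of 27 genes were marked, with a median of 278.7 tags per 10 M, and 7 of the 26 (26.9%) had an interaction. These included the scaffold gene Itsn1 with 8, the dynamin gene Dnm2 with 7, and Cltc, the clathrin heavy chain gene, Snx9 and Necap1 with 3 each. Among the tallest marks without one were Epn1 (447.8), Synj1 (412.0), Clta (341.3), Sh3gl1 (319.0) and Necap2 (310.7). In the list of endosome sorting all 21 genes were marked, with a median of 311.9, and 9 (42.9%) had an interaction, led by Snx5 with 12, the retromer gene Vps26a with 6 and Rab7 with 4, followed by Snx2 and Rab11a with 3. The tallest without one were Vps35 (395.4), Snx6 (368.8), Snx27 (349.5), Vps26b (343.5) and Hgs (330.8). Of all autosomal protein-coding genes 59.4% were marked. Over all marked genes the median was 220.4 and the share with an interaction 37.8%.

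Paralogs of the 8 genes ranged from unmarked to strongly marked. Of 22 autosomal paralogs, 12 were marked (54.5%, beside 59.4% of all autosomal protein-coding genes). An interaction was called at 5 of the 12 (41.7%, beside 37.8% of all marked genes): Bin3 with 6, the Sorl1 relative Sort1 with 4, Abca9 with 3, Bin2 with 2 and Abca3 with 1. Rin2 had 7.01 and 8.95 tags per 10 M and Rin1 no peak, against 151.9 and 162.6 at Rin3. Fermt3, the kindlin of blood cells, had 131.7 and 110.4 against 7.79 and 13.4 at Fermt2. In the Amph family, Bin3 had 281.2 and 274.5, Bin2 193.2 and 214.8 and Amph itself 12.5 and 13.4, against 357.6 and 368.5 at Bin1. Sort1 had 212.7 and 230.5, against 237.6 and 279.7 at Sorl1. The Picalm paralog Snap91 had a peak of 9.35 in replicate 1 alone, and the Sorl1 relatives Sorcs1 and Sorcs3 had none. Among ABC transporters, Abca1 (287.5 and 234.2), Abca2 (197.9 and 201.4), Abca5 (177.6 and 171.6) and Abca8b (44.4 and 50) were marked without an interaction. For Rin2, Fermt3, Bin3, Bin2, Amph and Sort1 the replicates did not overlap those of the gene named beside them. The Sort1 value lay inside the Sorl1 counting interval in replicate 1 (211.7 to 265.8) and below it in replicate 2 (252.1 to 309.5). Rin1, Rin2, Amph, Snap91, Sorcs1 and Sorcs3 were picked out after their values were seen.

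**Figure D4:**
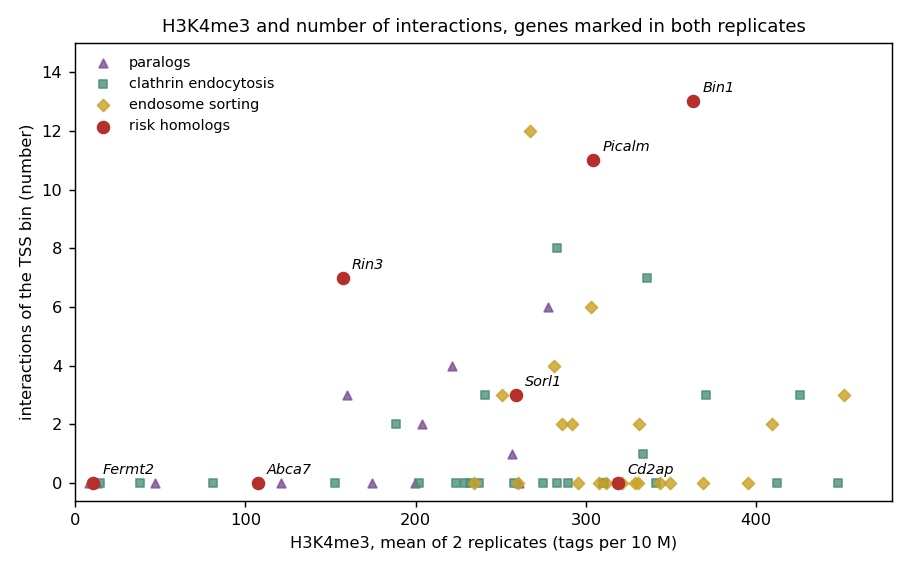
Mean H3K4me3 of 2 replicates in tags per 10 M against the number of interactions of the TSS bin, for the 7 marked risk homologs (red, named) and the marked genes of the paralog, clathrin endocytosis and endosome sorting lists. Bin1 and Picalm have 13 and 11 interactions and Snx5 12, whereas Cd2ap lies among tall marks at 0, and Rin3 has 7 at a level of 157.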

How the data were processed

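H3K4me3 ChIP-seq, its input and PLAC-seq of microglia from wild type mice comprised 2 libraries each. Per the labels, Bowtie2, HOMER and the build mm10 were used. The authors deposited 1 peak list per ChIP library, with a tag count per peak, a normalized signal (tags per 10 M, called the value), an input signal scaled to the ChIP depth, the fold over input (a ratio) and the focus ratio (a fraction, not used further). Depth is the ratio of tag count to value, at 12.8 and 13.4 M tags. The authors merged both PLAC-seq libraries, called interactions between 5 kb bins with MAPS from H3K4me3 peaks, and deposited the read pair count, the expected count and a false discovery rate (an adjusted p-value) for each; depth is unknown. The peaks used for calling are described as made with another pipeline and may differ from the deposited lists.

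TSSs were those of coding transcripts in the basic GENCODE M21 annotation (GRCm38), for autosomal protein-coding genes. A gene was marked if both replicates had a peak at most 1 kb from a TSS, and the tallest such peak gave its value. An interaction belonged to a gene if an anchor bin held its TSS. Intervals are exact 95% Poisson intervals of tags or read pairs and cover counting error only. Every listed interaction had at least 7 read pairs, a ratio of at least 2 and a false discovery rate of at most 0.01. Sums over bins hold listed interactions only, so their ratios lie above 1 by selection, which the intervals do not cover. The CpG ratio is the number of CpG times length over the product of the C and G counts. Promoter windows are from RefSeq (GRCm38.p6), with 6 of 8 genes used. Windows on chromosome 18, which holds Bin1, were left out by design, and Clu had no window. As all libraries used come from 1 group and interactions from 1 list, no difference was tested, and shares stand beside those of all genes. Gene assignment was tested on simulated peaks and interactions. Bin1, Picalm, Sorl1, Rin3, Cd2ap, Fermt2, Clu and Abca7 and the lists were chosen with earlier results of these data known. All 8 genes are described, with the 3 interactions of highest ratio in full. From each list the genes with most interactions and the tallest marked ones without any, up to 5 each, are named. Scripts used Python 3.11, numpy, pandas and scipy. Alternatives were other TSS windows, stricter interaction lists, other gene assignments and leaving out each ChIP replicate.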

Additional observations from a re-analysis of the deposited data

How the results depend on the processing

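All 6 alternatives for H3K4me3, leaving out either replicate included, gave 7 marked genes. The 34 interactions became 19 with a false discovery rate of at most 0.0001, 7 with 1 interaction per cluster, 63 with the bins next to the TSS bin, and 99 with any bin of the gene, an alternative added after the data were seen. The number of genes with an interaction ranged from 3 to 5. The share over all marked genes, 37.8% in the main setting, moved too. It was 24.6% at the stricter false discovery rate, 23.0% with 20 or more read pairs and 24.8% with 1 interaction per cluster. With the bins next to the TSS bin it was 45.2%, and by the authors' gene annotation 34.9%. Sorl1 lost all interactions at the stricter false discovery rate and at 20 or more read pairs, Bin1 had 0 by the authors' gene annotation, and Abca7 gained 8 with the bins next to the TSS bin. The median distance was 40 kb with 20 or more read pairs. The share of partner bins with H3K4me3 stayed between 14.7% and 17.6%. Picalm had 5 interactions at the stricter false discovery rate and 6 with 20 or more read pairs. Summed over all peaks within 1 kb, mean H3K4me3 was 389.9 at Picalm, 221.5 at Rin3 and 410.2 at Cd2ap. Bin1 stayed at 363, so by this measure Cd2ap and Picalm stood above Bin1. No paired analysis was possible because no result comes from a test between groups. Interactions come from 1 combined list of unknown depth, so a gene without one may still have contacts, and H3K4me3 at Fermt2 rests on 10 and 18 tags.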

Other observations

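Among the paralogs, Rinl and Abca4 had 2 and 1 interactions of their TSS bins without H3K4me3 in both replicates: Rinl had no peak, and Abca4 had 8.21 tags per 10 M in replicate 2 alone. The RefSeq table holds a second Sorl1 window inside the gene (chr9:42077164-42077463), 47.1 kb from the GENCODE start, with 44.0% G and C. No H3K4me3 peak lay there. The only H3K4me3 peak deeper than 3 kb inside Sorl1 was one of 4.67 tags per 10 M (6 tags) in replicate 1.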
